A study of Mus musculus with 66 samples.

Results

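The genes described here encode the machinery that builds, moves and marks nucleosomes: histone H3.3 and its chaperones, the H2A variants H2afy (macroH2A1) and H2afz, the CHD, SWI/SNF, INO80 and TIP60 remodellers, Polycomb proteins, enzymes of histone acetylation and methylation, enzymes of DNA methylation, and the coactivator Tcf20. They form a list of 54 genes, and every region that the authors had assigned to one of them in any of their 7 tables of differential regions was taken. That gave 164 of the 57678 listed regions, at 48 of the 54 genes. H3f3b, Daxx, H2afz, Chd1, Chd3 and Suz12 had no listed region. A table lists only regions that the authors called different by about 3-fold or more, so a gene that is not listed has no value in either group.

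The study asked how neuronal activity and enriched housing alter histone turnover. All groups used here were of strain C57bl/6. Primary cortical neurons were taken from E16.5 embryos, kept for 8 days in vitro, and either stimulated with KCl, which depolarises neurons, for 30 min, 2 hr or 5 hr, or left without stimulation as the control of the same time. H3.3 was immunoprecipitated at each time point, and H3.1/2 at 5 hr. CATCH-IT, run at 5 hr, captures nucleosomes with newly made protein through biotin and streptavidin, and so reads where histones were recently replaced. NeuN+ and NeuN- nuclei were sorted from the hippocampus of mice of about 7 weeks that had lived in an enriched environment for 4 weeks or in normal housing, and H3.3 was immunoprecipitated. NeuN is a nuclear protein of neurons, so the NeuN- fraction holds glia and other cells together. The tables give 3 library values per group and region, but 2 for NeuN+. The 30 min control has 4 libraries in the labels, of which 1 is marked as a repeat, and 3 values. The tables hold no level per gene, so neither fraction could be checked against marker genes. Culture and sort pool many cells, and fewer cells with a signal cannot be told apart from less signal per cell.

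Unlike H3.1 and H3.2, H3.3 can enter chromatin at any time, without DNA replication, and is placed by the HIRA complex (Hira, Ubn1, Ubn2, Cabin1) at active genes and by Daxx in heterochromatin. In neurons, which no longer divide, it is the main source of new H3. Remodellers of the SWI/SNF and CHD families use ATP to slide or evict nucleosomes, and Polycomb complexes keep genes silent through histone H2A ubiquitin and H3 lysine methylation. A table entry at such a gene describes histone on the gene's own DNA; it does not measure the gene's expression or the activity of its protein.

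In the H3.3 tables the genes had 20 regions at 17 genes, 15 of them lower and 5 higher after KCl or enriched housing, here termed lost and gained. The share lost over all 4651 regions of these 5 tables was 46.0%, from 28.2% in NeuN+ to 85.6% at 2 hr, and 57.0% when each table is weighted by its number of regions at these genes. Of the 20, 11 lost and 3 gained regions passed an adjusted p of 0.05 in the authors' deposited tables, as did 37.9% (lost) and 47.2% (gained) of all regions. The groups did not overlap at any of the 20, as at 100% of all regions of these tables, so non-overlap carries no information here. SWI/SNF genes gave 8 of the 20 regions, and 7 of those were lost, all but Arid2 past that threshold. Among all listed regions the share lost was 85.6% at 2 hr, 55.8% at 5 hr, 28.2% in NeuN+ and 29.3% in NeuN- nuclei, the tables these 8 come from. The stretches below show the DNA under the 6 lost SWI/SNF regions past the threshold (Arid2 is not shown), the lost Pcgf3 and Ncor1 regions and the lost Tcf20 region, on the plus strand of mm9 (NCBIM37). Capitals mark CpG dinucleotides, and also the E-box match CACGTG in Smarca4 and the AP-1 match TGATTCA in Smarcc1.
Arid1b, 2 hr, chr17:5219381-5219580: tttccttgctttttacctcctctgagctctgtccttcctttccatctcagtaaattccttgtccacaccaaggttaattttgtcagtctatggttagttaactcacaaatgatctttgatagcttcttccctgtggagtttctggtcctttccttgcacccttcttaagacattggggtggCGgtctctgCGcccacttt
Arid1b, NeuN+, chr17:5299161-5299360: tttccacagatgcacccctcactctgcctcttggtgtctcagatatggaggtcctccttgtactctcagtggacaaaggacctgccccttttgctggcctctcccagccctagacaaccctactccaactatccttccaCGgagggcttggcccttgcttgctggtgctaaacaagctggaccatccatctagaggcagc
Smarca2, 2 hr, chr19:26683261-26683460: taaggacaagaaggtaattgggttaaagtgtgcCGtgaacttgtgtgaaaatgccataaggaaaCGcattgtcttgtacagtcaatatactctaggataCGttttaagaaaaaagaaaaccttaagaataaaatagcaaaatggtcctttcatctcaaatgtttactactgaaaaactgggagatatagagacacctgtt
Smarca4, NeuN+, chr9:21475961-21476160: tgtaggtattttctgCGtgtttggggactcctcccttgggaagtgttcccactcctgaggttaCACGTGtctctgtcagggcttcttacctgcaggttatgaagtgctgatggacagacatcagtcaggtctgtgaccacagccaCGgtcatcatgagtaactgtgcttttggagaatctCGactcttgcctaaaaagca
Smarcc1, 5 hr, chr9:110108161-110108460 (the last 300 bases of the region): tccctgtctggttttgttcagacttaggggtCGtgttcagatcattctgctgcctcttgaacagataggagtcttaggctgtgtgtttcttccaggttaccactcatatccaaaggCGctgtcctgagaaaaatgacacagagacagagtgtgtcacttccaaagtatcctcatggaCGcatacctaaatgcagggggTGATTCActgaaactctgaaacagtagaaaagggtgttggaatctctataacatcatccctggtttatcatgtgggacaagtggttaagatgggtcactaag
Smarcc1, NeuN-, chr9:110128581-110128780: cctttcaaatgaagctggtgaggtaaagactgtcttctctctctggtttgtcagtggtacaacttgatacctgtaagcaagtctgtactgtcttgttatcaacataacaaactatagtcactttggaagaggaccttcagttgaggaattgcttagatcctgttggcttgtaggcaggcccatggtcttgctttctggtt
Pcgf3, 2 hr, chr5:108892521-108892740: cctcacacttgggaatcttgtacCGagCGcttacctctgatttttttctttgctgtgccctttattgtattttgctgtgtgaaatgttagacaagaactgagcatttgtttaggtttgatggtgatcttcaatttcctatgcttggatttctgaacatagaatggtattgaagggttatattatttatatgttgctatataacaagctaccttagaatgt
Ncor1, 30 min, chr11:62133821-62134080: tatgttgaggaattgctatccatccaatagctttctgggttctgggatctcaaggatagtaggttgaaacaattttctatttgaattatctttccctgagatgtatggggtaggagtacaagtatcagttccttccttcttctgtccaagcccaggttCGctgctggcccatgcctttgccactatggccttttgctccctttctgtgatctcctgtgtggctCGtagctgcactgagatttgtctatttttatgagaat
Tcf20, 5 hr, chr15:82730221-82730420: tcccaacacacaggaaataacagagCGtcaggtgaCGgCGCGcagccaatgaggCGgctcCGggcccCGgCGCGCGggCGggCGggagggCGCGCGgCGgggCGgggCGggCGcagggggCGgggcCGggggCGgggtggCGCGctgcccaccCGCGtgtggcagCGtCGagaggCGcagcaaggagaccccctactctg

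The 7 lost SWI/SNF regions held between 0 and 2.00 CpG dinucleotides per 100 bases, where the medians over all regions of their tables were 0.500 (NeuN-), 0.909 (2 hr) and 1.00 (5 hr and NeuN+). The Tcf20 stretch stood apart with 29 CpG dinucleotides and a GC share of 78.0%, the highest among the 372 lost regions of its table, where the median was 44.2%. It lies in an intron, 12244 bp from the annotated 5′ end. The motifs of 3 activity-regulated factor families were searched in all 20 regions on both strands: TGANTCA (AP-1), TGACGTCA (CRE) and CACGTG (E-box). AP-1 was found in 1 region, Smarcc1 at 5 hr, and in 8.85% of all regions of that table. The E-box was found in 1 region, Smarca4 in NeuN+ nuclei, and in 2.86% of all regions there. CRE was in none of the 20. In CATCH-IT, AP-1 was in 6.94% of the 144 member regions and in 10.8% of all 53020. There the E-box was in 3.47% of member regions and 3.92% of all, and CRE in 1 member region, 0.694% beside 0.234%. None of the 3 motifs contains another.

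The SWI/SNF complex, known as BAF in neurons, is built on an ATPase, Smarca2 (BRM) or Smarca4 (BRG1), with Smarcc1 as a core subunit and Arid1b or Arid2 as subunits that define the form of the complex. After 2 hr of KCl, all 3 member regions of the H3.3 table were lost and passed an adjusted p of 0.05 in the authors' deposited table, where 85.3% of all listed regions were lost and passed it and 14.2% were gained and passed it. Of the 3, 2 were SWI/SNF genes. At Arid1b (intron), H3.3 was 15.3, 14.2 and 11.1 normalised read counts in the controls and 4.59, 4.55 and 2.72 after KCl. At Smarca2 (intron, 1600 bp past an annotated start), it was 10.2, 11.7 and 14.7 in the controls and 0.92, 2.27 and 6.81 after KCl. Each control library lay above each KCl library at both genes, as the groups are apart at every listed H3.3 region. The means differed 3.41-fold at Arid1b and 3.66-fold at Smarca2, both with an adjusted p of 0.0210 in the authors' deposited table. The KCl values of Smarca2 were spread widely. Its log2 difference of -1.87 was -2.93 without the third, highest KCl value and -1.42, less than 3-fold, without the first, lowest one.

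After 5 hr of KCl, Smarcc1 carried the highest H3.3 counts of the 7 member regions of that table, in a 400 bp intronic region. It was also the longest of the 7, and whether the counts grow with region length is not given. The controls were at 35.4, 30.8 and 32.98 normalised read counts and the KCl libraries at 4.92, 8.78 and 14.9. The means differed 3.47-fold, with an adjusted p of 0.00606 in the authors' deposited table. Arid2 was listed as lost in the same table at 13.8 ± 2.36 in the controls against 4.10 ± 1.00 after KCl (SD, n = 3), but its adjusted p in the authors' deposited table was 0.105.

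In NeuN+ nuclei both member regions were SWI/SNF genes and both were lost, in a table in which 27.7% of regions were lost and 70.1% gained with an adjusted p of 0.05 or less. Arid1b was at 24.1 and 27.7 in normal housing and at 8.63 and 6.85 in enriched housing. Smarca4 was at 21.1 and 28.8 in normal housing and at 8.63 and 7.71 in enriched housing. The normal-housing libraries were the higher at both genes, by 3.35-fold and 3.05-fold, and the adjusted p in the authors' deposited table was 0.0235 for Arid1b and 0.0368 for Smarca4. The 2 Arid1b regions, at 2 hr in culture and in NeuN+ nuclei, lie 79580 bp apart in the same gene.

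In NeuN- nuclei 29.3% of regions were lost and 70.6% gained with an adjusted p of 0.05 or less, and 2 of the 4 member regions were lost and 2 gained. Smarcc1, 20120 bp from its 5 hr region, was at 5.69, 7.43 and 6.33 in normal housing and at 0, 0 and 1.08 in enriched housing. That is 24 reads against 2, and an 18.0-fold difference between means. Scaling the exact 95% interval of the read ratio to that fold gives 4.47 to 157. Both enriched-housing reads fell in the library where a read was worth least, 0.542 beside 1.16 and 2.64. In either other library they would have given a lower fold and lower limits, so the interval is not exact for the fold. Smarcd3 (chr5:24100101-24100300), a BAF subunit and the gained SWI/SNF member, was at 5.82, 10.6 and 4.88 in enriched housing and at 0, 1.35 and 0 in normal housing. The 2 reads against 18 give 15.8-fold, with an interval from 3.78 to 140 scaled in the same way. Here too both low reads fell in the library where a read was worth least, 0.675 beside 0.948 and 0.904. Its region overlaps the untranslated part of the neighbouring Chpf2, so the signal belongs to both genes' DNA. The authors' deposited table gave an adjusted p of 0.00556 for Smarcc1 and 0.00776 for Smarcd3.

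**Figure D1:**
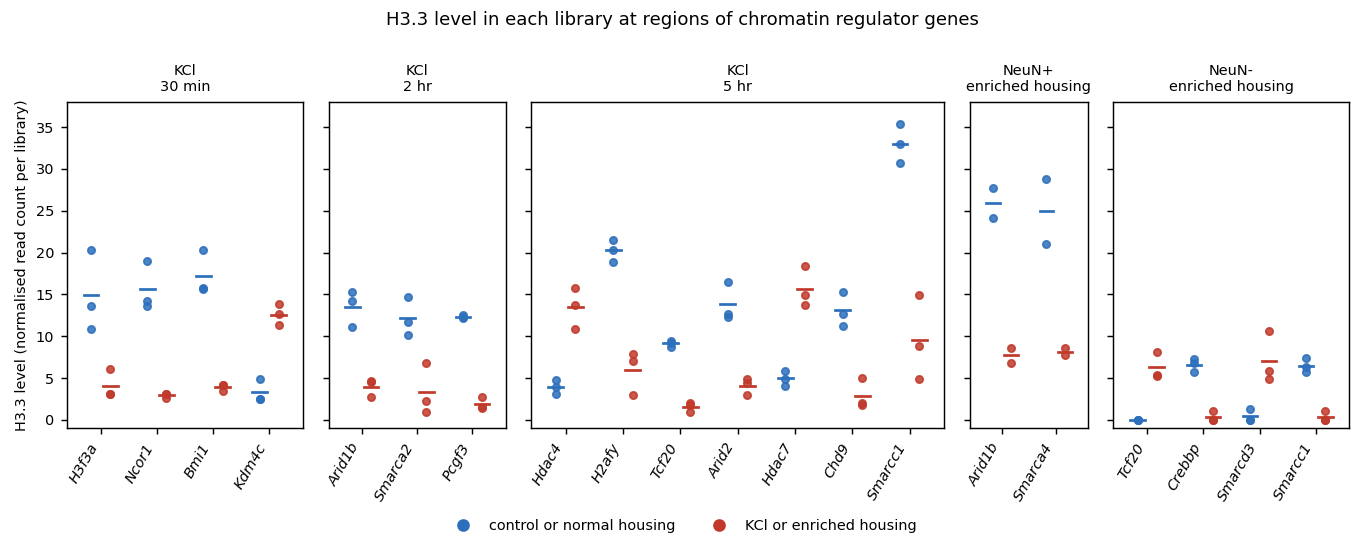
H3.3 level of every library (points) and group mean (bars) at the 20 H3.3 regions, in normalised read counts on the vertical axis, with control or normal housing in blue and KCl or enriched housing in red. The 2 colours do not overlap at any region, as everywhere in these tables. Smarcc1 at 5 hr, the longest region at 400 bp, is the highest, with controls between 30.8 and 35.4.

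Of the histone genes themselves, H3f3a, 1 of the pair of H3.3 genes, had a region listed as lower at 30 min of KCl. This intronic region (chr1:182735041-182735280), which also overlaps an intron of Gm17275, was at 20.3, 10.8 and 13.7 in the controls and at 6.05, 3.15 and 3.09 after KCl, 3.64-fold between means. Its adjusted p in the authors' deposited table was 0.0592, short of 0.05, and its ratio to input moved least of the 20, from 1.69 to 1.28. H3f3b, the other gene of the pair, was in no table. The region of H2afy (chr13:56175361-56175640), whose macroH2A protein marks compact chromatin, was lost at 5 hr, from 18.9, 21.5 and 20.4 in the controls to 7.87, 7.02 and 2.98 after KCl. It is in an exon near the 3′ end, at 0.992 of the gene's length, and the 3.40-fold difference had an adjusted p of 0.0399 in the authors' deposited table. At 5 hr 1.35% of regions were lost and 1.65% gained with an adjusted p of 0.05 or less, so Smarcc1 and H2afy were 2 of the 9 regions lost by that rule. None of the 7 regions of the H3.1/2 table, the replication-coupled H3, was at a member.

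The 30 min table held 4 member regions, with 2 lost and 1 gained past an adjusted p of 0.05, against 78.6% lost and 19.9% gained among all its regions. Bmi1 (chr2:18597541-18597780), a subunit of Polycomb repressive complex 1, was at 20.3, 15.8 and 15.6 in the controls and at 3.46, 4.21 and 4.12 after KCl. The corepressor Ncor1, which recruits histone deacetylases, was at 19.0, 14.2 and 13.7 in the controls and at 2.59, 3.15 and 3.09 after KCl. The control mean was the higher at both, by 4.39-fold at Bmi1 and 5.31-fold at Ncor1. Both had an adjusted p of 0.00552 in the authors' deposited table. The H3K9 demethylase Kdm4c (intron, chr4:73958161-73958400) went the other way, with KCl libraries at 13.8, 12.6 and 11.3 and controls at 2.54, 2.50 and 4.88, 3.81-fold between means and an adjusted p of 0.0230 in the authors' deposited table.

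Pcgf3, a Polycomb repressive complex 1 subunit like Bmi1, was the third lost region at 2 hr, and its controls were the tightest of the cultured regions at 12.2, 12.5 and 12.3. After KCl it was at 2.76, 1.52 and 1.36, a 6.56-fold difference with an adjusted p of 0.00757 in the authors' deposited table. Bmi1 and Pcgf3 were the 2 regions of the listed Polycomb genes in the H3.3 tables, and both were lost in tables where 79.9% (30 min) and 85.6% (2 hr) of all regions were lost. Ezh2, Jarid2, Kdm2b and Suz12 had none. Polycomb genes in the wider list of 146 other chromatin genes went in both directions. Ring1, the E3 ligase of the same complex, was lost at 2 hr, at 12.6 ± 1.98 in the controls against 3.49 ± 1.45 after KCl (SD, n = 3), and Phc2 was lost in NeuN- nuclei. In NeuN+ nuclei Phc1 was gained, at 29.8 ± 2.22 in enriched against 7.63 ± 2.28 in normal housing (SD, n = 2), and so was L3mbtl3, at 22.6 ± 1.97 against 5.82 ± 2.42 (SD, n = 2). Of all regions 71.8% were gained in NeuN+ and 29.3% were lost in NeuN- nuclei. Ring1, Phc1 and L3mbtl3 thus went the way of most regions of their tables, and Phc2 did not. All 7 regions of that wider list in the 2 hr table were lost and passed the threshold, the others being Kdm5b, Rcor1, Mta3, Kdm2a, Mll5 and Kdm3a, beside the 85.3% of all regions.

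At 5 hr the class II deacetylases Hdac4 and Hdac7, which shuttle between nucleus and cytoplasm with activity, were listed as higher. Hdac4 was at 13.5 ± 2.46 after KCl and 3.89 ± 0.820 in the controls, and Hdac7 at 15.7 ± 2.43 and 4.95 ± 0.904 (SD, n = 3). Neither passed, with an adjusted p of 0.103 and 0.0989 in the authors' deposited table. Chd9, a CHD remodeller, was listed as lower, at 2.90 ± 1.79 against 13.1 ± 2.08, and Tcf20, at 1.57 ± 0.525 against 9.13 ± 0.365 (SD, n = 3), with an adjusted p of 0.0797 and 0.0989 in the authors' deposited table. The Chd9 log2 difference of -2.18 was -2.81 without its highest KCl value and -1.92 without the second. None of the genes on the wider list that were listed at 5 hr, Rcor1 and Kat6b among them, passed either. Few regions of any kind did at 5 hr, 1.35% of all as lost and 1.65% as gained.

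The acetyltransferase Crebbp (intron, chr16:4100581-4100780), a coactivator of CREB, was lost in NeuN- nuclei, from 5.69, 6.76 and 7.23 in normal housing to 0, 0 and 1.08 in enriched housing. The 24 reads against 2 give 18.2-fold, with a 95% interval from 4.52 to 159. It was scaled from the read ratio as for Smarcc1 and has the same limit. The adjusted p in the authors' deposited table was 0.00556. At Crebbp and Smarcc1 alike, the 2 reads of enriched housing came from 1 library, and without it that group was at 0. Tcf20 was gained there (intron, chr15:82687941-82688160), at 8.14, 5.28 and 5.42 in enriched housing and at 0 in every normal-housing library. Against a floor of 3 reads over the group it was at least 7.45-fold higher, with an adjusted p of 0.00280 in the authors' deposited table. Tcf20 was therefore listed as lower in KCl-treated cultures and gained in NeuN- nuclei, at regions 42060 bp apart. The wider list had 5 gained (Baz2a, Mta1, Uhrf1, Bcl7a, Setd5) and 2 lost (Phc2, Sirt2) regions in NeuN- nuclei, and 3 gained (L3mbtl3, Phc1, Sin3b) and 3 lost (Jmjd1c, Rai1, Whsc1) in NeuN+ nuclei. That is 71.4% and 50.0% gained, beside 70.7% of all regions in NeuN- and 71.8% in NeuN+ nuclei.

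The direction held over input at all 20 regions. In the authors' deposited table, the higher group was above its input at every region, between 1.62 (Arid1b at 2 hr) and 5.19 (Smarcd3), while the lower group was below its input at 17 of 20. The exceptions were H3f3a at 1.28, Arid2 at 1.10 and Chd9 at 1.07. Over all regions of the same tables with an input in both groups, the direction over input was that of the count in 95.7% to 100% of regions.

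**Figure D2:**
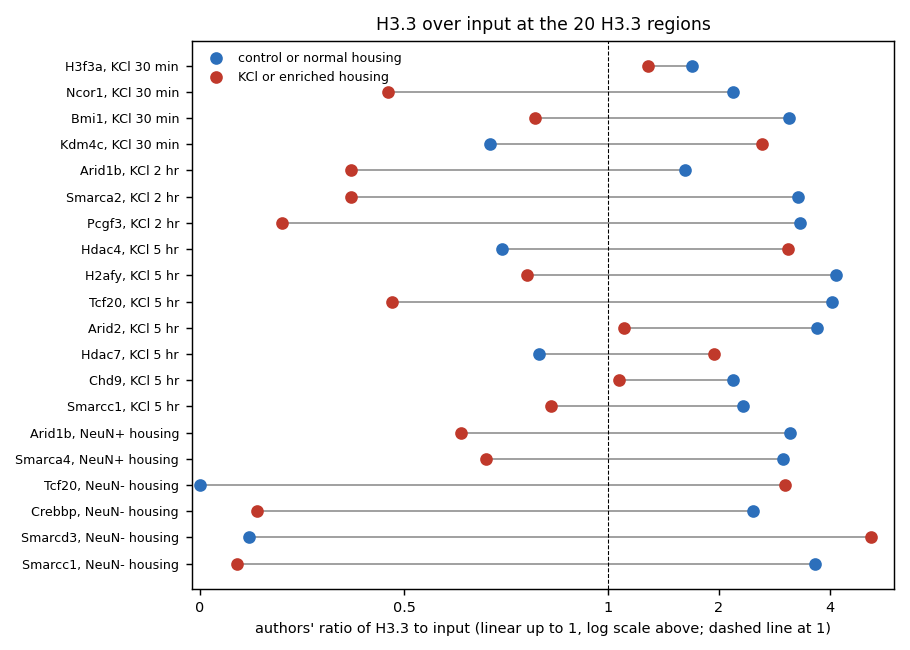
The authors' ratio of H3.3 to input at each of the 20 regions, control or normal housing in blue and KCl or enriched housing in red, on an axis that is linear to 1 and logarithmic above. The lines cross the dashed line at 1 for all regions except H3f3a, Arid2 and Chd9, whose 2 points both lie above 1.

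By place, 17 of the 20 H3.3 regions were in introns, 2 in coding exons and 1 (Bmi1) upstream. The authors placed 6 of them within 3 kb of a transcript start. By table these were 3 of 4 at 30 min, 2 of 3 at 2 hr, 0 of 7 at 5 hr, 0 of 2 in NeuN+ and 1 of 4 in NeuN-. Over all regions with a gene the shares were 30.2%, 25.9%, 17.5%, 22.1% and 22.0% in the same order. The member counts are small and their differences were not tested. The gene models used here had a start within that distance for 5 of the 6. The exception was H3f3a, 8504 bp from the nearest annotated start. Tcf20 in NeuN- nuclei, which the authors classed as gene body, lay 700 bp upstream of an annotated internal start. Bmi1 was 984 bp upstream of its own start, within an exon of the neighbouring Commd3. Pcgf3 was 2380 bp and Smarca2 3710 bp from the gene's 5′ end. Ncor1 was at 0.972 of the gene's length, near the start of a short internal transcript and in an intron of Ttc19, and H3f3a and Smarcd3 were at 0.680 and 0.682. Of the 19 regions within a gene, 11 lay in the last of 3 equal parts of its length, 57.9% beside 33.7% of the 2421 regions within genes in the same tables. For CATCH-IT this share was 30.7% beside 34.5%.

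**Figure D3:**
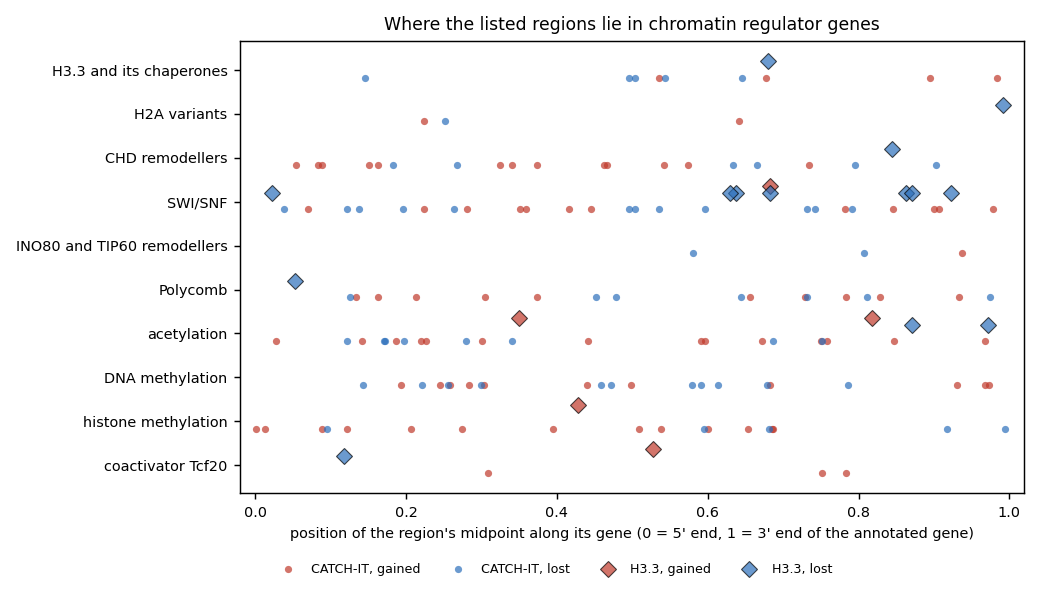
Midpoint of each region along its gene, from 0 at the 5′ end to 1 at the 3′ end, by class, with H3.3 regions as diamonds and CATCH-IT regions as dots, gained in red and lost in blue. The SWI/SNF diamonds lie at 0.630 or beyond except for Smarca2 at 0.0214, while the dots cover the whole length.

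CATCH-IT gave far more regions: 144 at 44 of the 54 genes, 86 gained and 58 lost after 5 hr of KCl. All passed an adjusted p of 0.05, as did every region of the table, where 57.3% were gained and 42.7% lost. The share gained among members was 59.7% (Wilson 95% interval 51.6 to 67.4, counting error only). This interval takes the regions as independent, though they share 44 genes and the same libraries, so it cannot be set against the share of all regions. The groups did not overlap at 142 of the 144, beside 99.2% of all regions. The lower group was at 0 in every library at 142 of the 144. The median region rested on 18 reads over the 3 libraries of the higher group, and in 77.8% of member regions 1 library held over 50% of the summed value, beside 78.3% of all regions. A difference at 1 CATCH-IT region is therefore a presence of a few reads against none.

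By class, the counts ranged as follows. Histone methylation genes had 14 gained and 5 lost, CHD remodellers 13 and 6, acetylation genes 15 and 9, Polycomb genes 10 and 7, DNA methylation genes 12 and 11, and SWI/SNF genes 12 and 12. The H3.3 chaperones had 4 gained and 5 lost, with Hira at 0 and 2 and Cabin1 at 3 and 1. INO80 and TIP60 remodellers had 1 gained and 2 lost, and the H2A variant H2afy 2 and 1. Genes with both directions were 26, those with gains alone 7 and those with losses alone 11.

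Within SWI/SNF, Arid1b, the longest of the genes, had 6 gained and 2 lost regions, Arid1a 3 and 1, Smarcc1 2 and 2, and Smarcc2 1 and 0. The ATPase genes Smarca2 and Smarca4 had 0 gained and 3 lost each, and Arid2 had 0 and 1. These counts per gene are small, and differences between the genes were not tested. At the Smarca2 region with the lowest adjusted p, the controls were at 2.84, 6.93 and 14.2 and all KCl libraries at 0, at least 5.22-fold lower. At a Smarca4 region the controls were at 0.32, 16.6 and 1.18, so that 12 of the 14 reads came from 1 library. Smarca2, Smarca4, Arid2, Arid1b and Smarcc1 had lost regions both in CATCH-IT and in an H3.3 table, where Arid2 did not pass the threshold. The CATCH-IT region nearest to that of H3.3 was a lost one at Smarca2, Smarca4 and Arid2, 17100, 8680 and 21040 bp away. At Smarcc1 it was a lost one 8740 bp from the 5 hr region and a gained one 2880 bp from the NeuN- region, and at Arid1b a gained one 98100 bp from the 2 hr region and another 40500 bp from the NeuN+ region. At Arid1b the leading CATCH-IT region was gained, at 8.02, 3.20 and 16.3 after KCl against 0, which is 6 reads in each library.

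The H3K36 methyltransferase Setd2 had 5 gained regions and none lost. One lay at the gene's start, 110 bp from the 5′ end, at 5.34, 1.60 and 35.3 after KCl against 0, and another in an intron, at 32.1, 4.26 and 21.7 against 0. They were at least 14.7-fold and 20.1-fold higher, the first mainly through 1 library. Kdm4c had 3 gained and none lost, and its leading region was 5040 bp from the one gained in H3.3 at 30 min. Tcf20 also had 3 gained and none lost. The strongest, at 17.4, 4.26 and 32.6 against 0, was 19260 bp from the region listed as lower in H3.3 at 5 hr.

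Among the remodellers, Chd6 and Chd8 had 4 gained and 1 lost each, Chd2 3 and 1, and Chd7 0 and 2. Chd8 had 12.6 regions per 100 kb, the densest of the 54 genes. A Chd6 region 8760 bp from the 5′ end was at 16.0, 6.39 and 59.8 after KCl against 0, at least 28.5-fold higher. A lost Chd5 region had the most even normalised values of those described, at 5.68, 8.32 and 7.10 in the controls against 0. These are 18, 6 and 6 reads, all multiples of 6, a pattern described under the other observations.

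The Polycomb partners Jarid2 and Kdm2b, which had no H3.3 region, had 7 CATCH-IT regions each, 4 gained and 3 lost at Jarid2 and 5 gained and 2 lost at Kdm2b. The leading Jarid2 region was at 24.0, 4.79 and 13.6 after KCl against 0. A lost Kdm2b region sat 14 bp from the start of an internal transcript, at 3.79, 8.32 and 7.10 in the controls against 0. These are 12, 6 and 6 reads. Bmi1, lost in H3.3, had 1 lost CATCH-IT region, 5020 bp away, with 6 reads in each control and none after KCl.

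The deacetylase gene Hdac4 had the most regions of any member, 7 gained and 2 lost. Dnmt3a, a de novo DNA methyltransferase, had 3 gained and 5 lost, the most losses of any member, and its leading region was gained at 10.7, 9.05 and 16.3 against 0. The demethylation enzymes Tet1 and Tet2 had 4 and 3 gained and 2 and 1 lost. At Ncor1 a gained and a lost CATCH-IT region overlapped by 80 bp, and another gained region lay 140 bp from the region lost in H3.3 at 30 min. At Hdac4 the region listed as higher in H3.3 at 5 hr was 1700 bp from a lost CATCH-IT region. Of the 17 genes with an H3.3 region, 13 also had CATCH-IT regions; H3f3a, Pcgf3, Smarcd3 and Hdac7 had none.

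**Figure D4:**
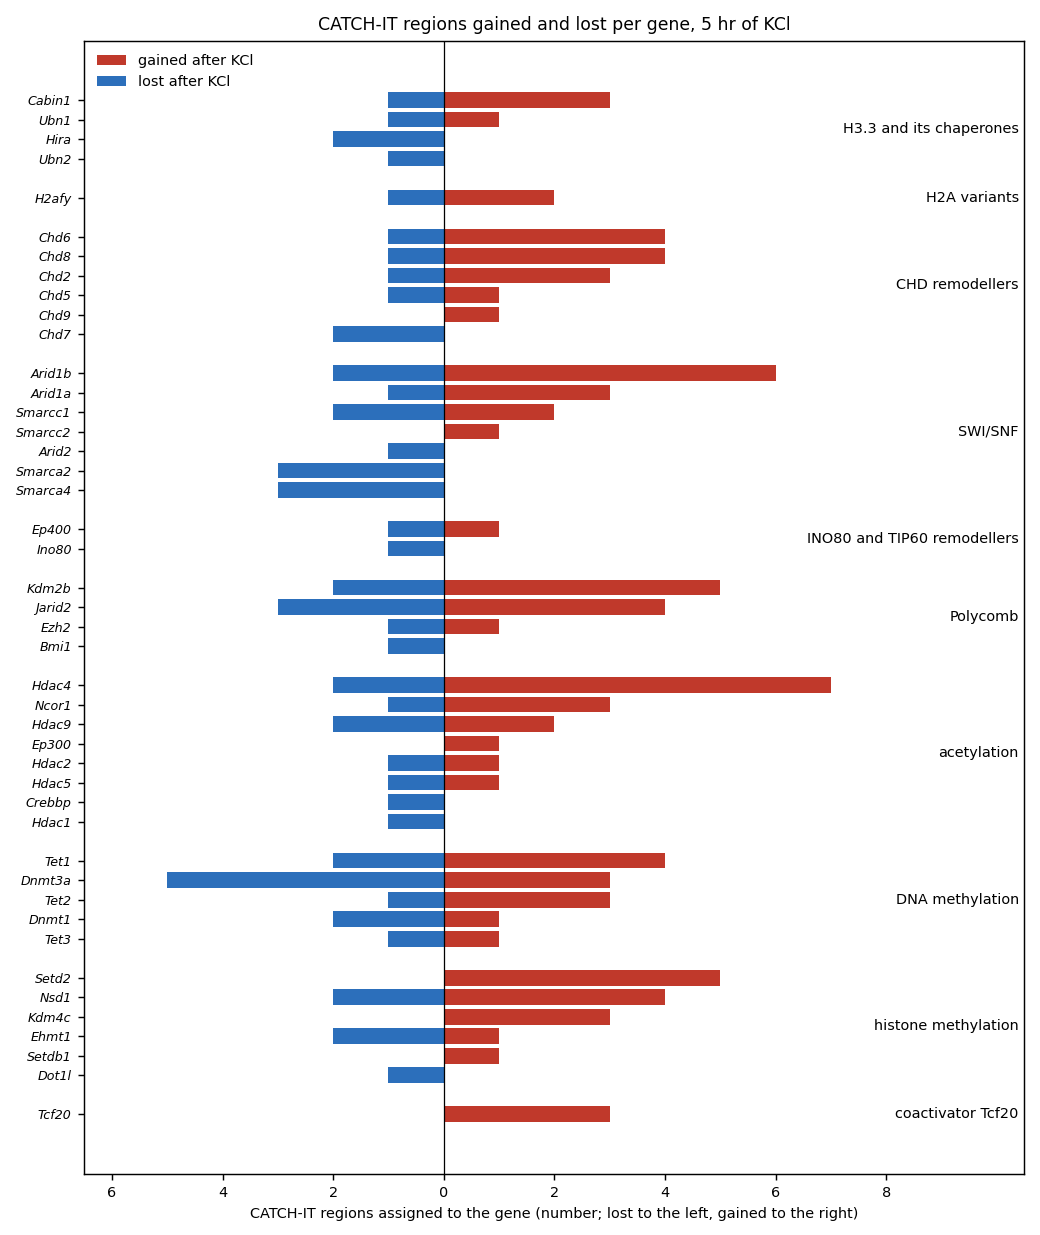
Number of CATCH-IT regions gained (right, red) and lost (left, blue) after 5 hr of KCl for the 44 genes with at least 1 region, by class. Hdac4 has 7 gained and Dnmt3a 5 lost; Setd2, Kdm4c and Tcf20 have gains alone, and Smarca2 and Smarca4 losses alone.

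The number of CATCH-IT regions per gene went with gene length, with a Spearman rho of 0.64 over the 54 genes and 0.61 over 22380 protein-coding genes, which share the same libraries. The members were long genes, with a median of 83.4 kb beside 15.4 kb. A region was listed for 81.5% of them beside 39.5% of protein-coding genes, and among genes of 20 to 200 kb for 88.6% of 44 members beside 64.0% of 8764 genes. Per 100 kb the members had 2.76 regions and protein-coding genes 2.27. The members were chosen with earlier results of these data known, and lengths within the 20 to 200 kb band were not matched. These higher values therefore cannot be read as an excess at chromatin genes. The regions lay mostly in introns (110), with 25 in coding exons, 6 in untranslated exons and 3 outside the gene. The authors placed 4.17% of them at promoters, beside 11.6% of all CATCH-IT regions with a gene.

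**Figure D5:**
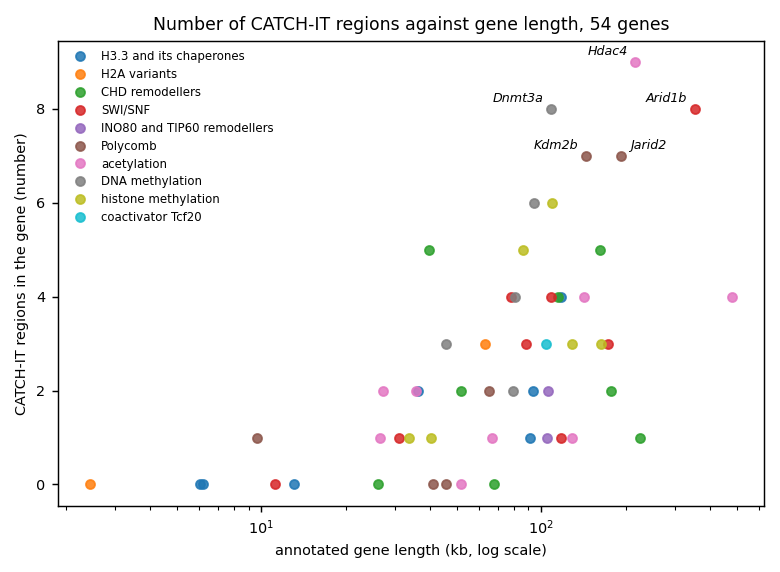
CATCH-IT regions per gene against annotated gene length (log scale) for the 54 genes, coloured by class. Genes without a region have a median length of 19.6 kb and those with one 99.0 kb; Hdac4 is the highest with 9.

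Depth and lanes bear on all of these values. A read was worth 0.757 to 1.36 normalised counts in the cultured H3.3 libraries, 0.784 to 1.51 in NeuN+, 0.542 to 2.64 in NeuN- and 0.315 to 2.72 in CATCH-IT, so a value near 1 rests on 1 to 3 reads, depending on the library. In the titles all KCl libraries carry 1 lane number and all controls another at 30 min, at 2 hr and in CATCH-IT, and likewise the housing groups in NeuN-. In NeuN+ every H3.3 library carries its own lane number, so the housing groups share none. Lane and treatment cannot be told apart in any of these comparisons. At 5 hr each of 3 lane numbers is carried by 1 KCl and 1 control H3.3 library. Those titles are marked as without an index and name no run, so an equal number need not mean a shared lane. The values in the table are also not tied to named libraries, so no within-lane value could be had.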

How the data were processed

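The deposited tables give chromatin immunoprecipitation and CATCH-IT sequencing results per region. Reads were mapped to mm9 with Bowtie 0.12.7 and handled with bedtools 2.16.2, per the submitters' processing notes; the caller that listed the regions is not given in these sources. Of its settings, the authors' names for their deposited tables give a window of 200, a fold of 3 (all but the 5 hr H3.3 table) and, for CATCH-IT, a duplicate label of 6, without saying how each was applied. Per the file headers, the authors deposited for each region the normalised signal of every library packed in 1 cell, the group mean, the ratio of each group to input, the log2 fold change, and a p-value with its adjusted p. The values were taken as deposited, and no test was refitted because only regions already called are listed; counts are set beside the same count over all regions of a table. The extract protocol calls the in vitro libraries biological triplicates and the in vivo ones duplicates.

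Regions were assigned to genes by the authors' gene name, matched to GENCODE M1 on NCBIM37 (mm9), which also gave position, exons and sequence. The worth of 1 read was recovered as the step of which low values are whole multiples, within 0.02, and was tested on simulated data. Members, classes and lists were chosen with earlier results of these data known. A gene of the wider chromatin list is not reported here and was left out of its counts. Named regions are all members in H3.3 tables and, in CATCH-IT, up to 3 leading regions per class with a value in every library of the higher group, those within 1000 bp of an annotated start, and the leading region of members also in an H3.3 table. Analyses used Python 3.11.15, pandas 2.3.3, numpy 2.4.6 and scipy 1.17.1. Alternatives changed the adjusted p threshold, the assignment, the direction measure, a pseudocount of 1 and each library in turn.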

Additional observations from a re-analysis of the deposited data

How the results depend on the processing

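No listed direction reversed under any alternative run. Where the groups do not overlap, as at every H3.3 region, leaving out a library or adding a pseudocount cannot reverse it. Of the alternatives, only the ratio to input could have done so there. Of the H3.3 counts past an adjusted p of 0.05 in the authors' deposited tables, at 0.01 the 30 min gain fell from 1 to 0, the 2 hr losses from 3 to 1, the 5 hr losses from 2 to 1 and the NeuN+ losses from 2 to 0; at 0.1 the 30 min losses went from 2 to 3 and the 5 hr counts from 0 to 1 gained and from 2 to 4 lost. When each library value was left out in turn, the regions still at least 3-fold apart numbered 1 (gained) and 2 to 3 (lost) at 30 min, 2 to 3 (lost) at 2 hr, 1 to 2 (gained) and 3 to 5 (lost) at 5 hr, 1 to 2 (lost) in NeuN+, and 2 and 2 in NeuN-. In CATCH-IT this says nothing, since the lower group was at 0 at 142 of the 144 regions, as at Tcf20 in NeuN-. The regions that fell under 3-fold were, at 30 min, H3f3a without the first control value (log2 -1.58), at 2 hr, Smarca2 without the first KCl value (-1.42) and Arid1b without the third (-1.56), in NeuN+, Smarca4 without the second value of either group (-1.53 and -1.37) and, at 5 hr, H2afy and Arid2 without the third KCl value (-1.44 and -1.57), Smarcc1 without the first (-1.48), and Hdac7 without the second value of either group (1.53 and 1.55). In CATCH-IT, 11 gained and 2 lost regions had input in both groups, and 2 gained and 0 lost had reads in both groups. Leaving out regions in which 1 library held over 50% of the higher group, an alternative chosen after seeing the data, left 22 gained and 10 lost, 68.8% gained. That rule takes out 82.8% of lost and 74.4% of gained member regions, beside 82.1% and 75.5% over all regions. Taking 1 region per gene gave 70.5%. That region is the one with the smallest adjusted p, which reached 4.15e-07 among gained and 1.66e-06 among lost member regions in the authors' deposited table, so the choice favours gains. The cause of these shifts was not tested. No paired analysis was possible because the packed values carry no library names and no test was fitted. Regions rest on few reads, so small differences are below what this depth can show, and regions under about 3-fold are not listed.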

Other observations

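Read numbers in CATCH-IT clustered at 6 and 12. Over the member regions, 17.8% of the 432 library values of the higher group were exactly 6 reads and 18.5% exactly 12, while 5 and 7 reads took 4.63% and 4.17%, and 11 and 13 reads 0.926% and 4.17%. Over all CATCH-IT regions 6 and 12 reads took 18.2% and 17.9%. At 41 of the 58 lost member regions the third control value was 12 reads, 70.7% beside 67.6% of all lost regions. Leading regions of Arid1b, Smarcc1, Tet1 and Hdac9 carry the same 3 values, 8.02, 3.20 and 16.3, which is 6 reads in each KCl library. A region length of 380 bp was shared by 43.1% of member regions and 46.2% of all. The authors' name for this table carries a duplicate label of 6, whose use is not given, and the part of duplicate handling in these numbers was not tested. This pattern was chosen after its values were seen.

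Gained and lost CATCH-IT regions also sat side by side within genes. A gained and a lost region were less than 5000 bp apart at Ehmt1, H2afy, Hdac2, Hdac4, Jarid2, Kdm2b, Ncor1, Nsd1, Tet1 and Tet2. The gap was 100 bp at Hdac2, 200 bp at 1 of the Jarid2 pairs and 460 bp at Ehmt1.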
